A study of Mus musculus with 18 samples.

Results

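The Fgf13-high arrays are the 6 of the 18 arrays of the series that are not titled A2C12 and in which Efemp1 lay below a log2 signal of 9. They form 3 pairs of sorted side population (SP) and nonSP cells, titled betaD5 2, betaD5 3 and cRAF_cMYC 3. Each pair joins the SP and the nonSP array of 1 title line and replicate number, which gives 3 SP against 3 nonSP arrays. The series measured RNA on Affymetrix 3' expression arrays in SP and nonSP cells of 3 mouse lung carcinoma lines named A2C12, betaD5 and cRAF_cMYC. Per the labels, the lines transformed spontaneously and came from lung tumours of 8-month-old mice that carried both a c-myc and a c-raf transgene, so SP and nonSP cells alike carry both. All groups were grown in the same serum-containing medium and received no treatment. The promoters of the transgenes, the mouse strain, the dye used for the sort and whether a line is 1 clone are not given in the sources used here. The labels also do not say whether replicates were separate cultures, so p-values measure only the spread between these arrays, which may be technical.

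Side population cells are found by flow cytometry as cells that keep little of a DNA-binding dye because transporters of the ATP-binding cassette family pump it out. Abcg2 is the transporter best known for this, with Abcb1a and Abcb1b as the other classical drug pumps of mouse cells. The fraction has been studied in many tumours for drug resistance and for cells able to found new tumours. The question of the design is which genes differ between the SP cells and the rest of the same line.

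The rule used the level of Efemp1, an extracellular matrix protein gene. Fgf13, a member of the fibroblast growth factor family that stays inside the cell, was high in the arrays where Efemp1 was low. Efemp1 had log2 signals of 4.51, 4.68 and 4.46 in the SP arrays of betaD5 2, betaD5 3 and cRAF_cMYC 3, and of 4.37, 4.38 and 3.93 in their nonSP arrays. In the other 12 arrays it lay between 12.60 and 13.90, so no array lay near the limit. Fgf13 had log2 signals of 12.63, 12.34 and 12.28 in SP and 12.30, 12.60 and 12.35 in nonSP, against 3.12 to 6.18 in the other 12 arrays. The Efemp1 values chose the arrays, Fgf13 names the set, and both are given as a description. The set cuts across the titles: betaD5 1 and cRAF_cMYC 1 and 2 form the Efemp1-high set, although the titles name the same lines. Arrays are therefore called by their titles here, with no statement on which line a title stands for. All values below are given in the order betaD5 2, betaD5 3 and cRAF_cMYC 3.

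The SP and nonSP array of 1 pair were closely tied in the deposited values. Over 45037 probe sets that are no controls, arrays of 1 pair held between 923 and 1787 exactly equal values in the 9 pairs of the series, with 957, 923 and 1112 in the Fgf13-high pairs. Any other 2 arrays shared at most 3 equal values. How arrays were grouped for signal summary is not given in the sources used here, so levels compared across pairs may carry a difference in processing. Differences within a pair do not rest on such a comparison, and the main fit takes SP minus nonSP within pairs.

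The ratio of 3' to 5' signal of control transcripts differed within the betaD5 pairs. The 3' minus 5' log2 signal of the Gapdh control was 0.76, 0.97 and 0.07 in SP, against 0.10, 0.05 and 0.13 in nonSP. For the Actb control it was 1.06, 0.95 and 0.33 in SP, against 0.19, 0.15 and 0.38 in nonSP. The SP arrays of betaD5 2 and betaD5 3 stood above their nonSP partners for both controls, and the SP array of cRAF_cMYC 3 did not. For Tfrc the values were 3.40, 3.28 and 2.95 in SP and 2.94, 2.59 and 3.06 in nonSP, again higher in SP in the betaD5 pairs alone. Such ratios are used as a measure of how much shortened RNA or cDNA a sample holds. A fit with the ratio as a covariate and the values of the cRAF_cMYC 3 pair are given with the calls.

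**Figure D1:**
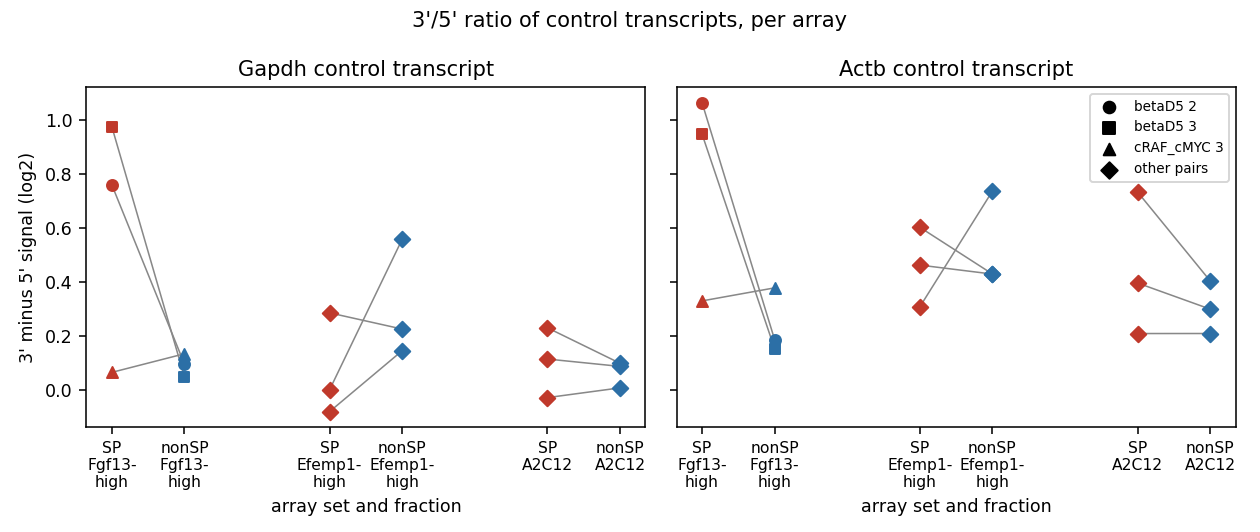
The y axis is the log2 signal of the 3' probe set minus that of the 5' probe set of the Gapdh and Actb control transcripts, with 1 point per array and a line joining the SP (red) and nonSP (blue) array of a pair. The SP arrays of betaD5 2 and betaD5 3 lie at 0.76 and 0.97 for Gapdh, and cRAF_cMYC SP 3 lies at 0.07.

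More genes were higher than lower in SP. Of 10916 genes tested with limma, 606 passed an adjusted p below 0.05 (5.55% of all), 508 higher in SP (4.65%) and 98 lower (0.898%). The higher genes had a median difference of 0.51 on the log2 scale, from 0.19 to 1.54, and 14 of them lay over 1. The lower genes had a median of -0.40, from -0.92 to -0.27. Over all genes the median was 0.04 and 58.6% lay above 0. All 606 had the same sign in the 3 pairs, which a call from these same pairs favours. In 477 of them the SP and nonSP arrays did not overlap, 425 with SP higher and 52 with SP lower, where 14.3% of all genes tested did not overlap (11.2% with SP higher and 3.13% with SP lower). The median standard error of a difference was 0.104.

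The call rested on the pairing and on the spread shared with the other 12 arrays: without the replicate block 0 genes passed (200 at an unadjusted p below 0.05), and with the 6 arrays alone 0 passed (2012 unadjusted). The number of calls also depended on the pairs: 40 genes passed without betaD5 2, 529 without betaD5 3 and 70 without cRAF_cMYC 3. With the 3'/5' ratio as a covariate 0 passed (1225 unadjusted). In that fit all 508 and all 98 genes kept their sign, with medians of 0.51 and -0.38, and the median standard error was 0.148. The genes were called from these same arrays, so the kept signs are a description and no separate support. Those called with all 3 pairs and after removal of each pair in turn numbered 22, of which 21 were higher in SP and 1, Ltc4s, was lower.

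**Figure D2:**
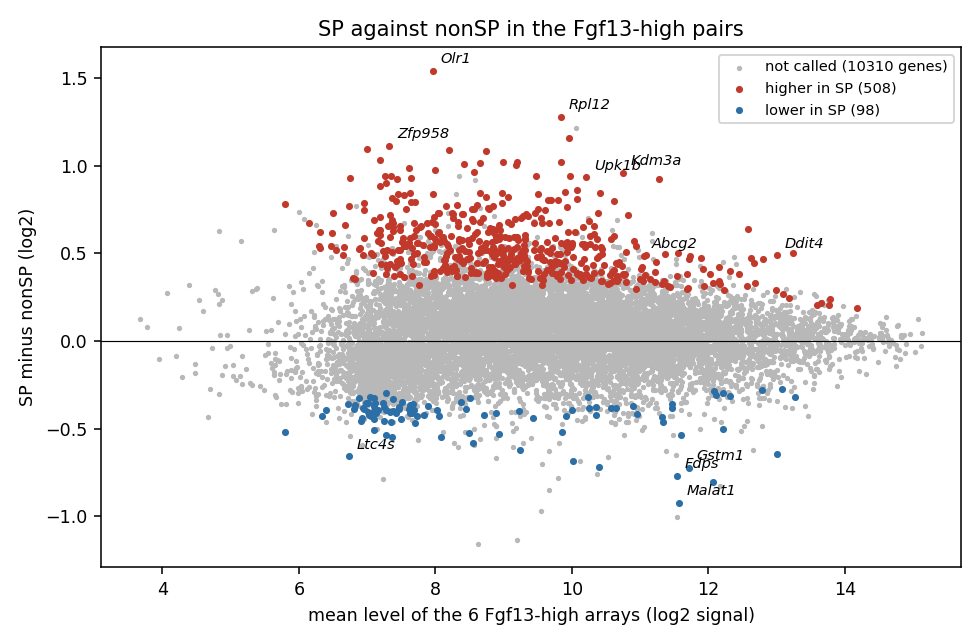
The x axis is the mean log2 signal of the 6 Fgf13-high arrays and the y axis is SP minus nonSP on the log2 scale, with 1 point per gene. The 508 genes higher in SP are red, the 98 lower ones are blue, and the rest are grey. Both kinds of call spread over most of the range of levels. The lower genes had a median level of 7.69, against 8.98 for the higher genes and 9.51 for all genes tested.

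The cRAF_cMYC 3 pair, which has no raised control ratio, gave a reading of calls made without it. From the 2 betaD5 pairs alone, 46 genes were higher in SP and 24 were lower. Of the 46 higher genes, 45 were also higher in the SP array of cRAF_cMYC 3, with a median of 0.63 there and 0.82 in the betaD5 pairs. Of the 24 lower genes, 12 were also lower there, with a median of 0.00 against -0.72. Over all genes, 55.3% lay above 0 in cRAF_cMYC 3.

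Several of the decreases were large in betaD5 and absent from cRAF_cMYC 3. Cenpb, which codes for a centromere-binding protein, differed by -1.61, -1.20 and 0.26 in the 3 pairs. Bsg, the cell surface glycoprotein basigin, differed by -1.80, -0.82 and 0.15. Get3, which targets tail-anchored proteins to the endoplasmic reticulum, differed by -1.17, -1.02 and 0.21. None of these passed the test over the 3 pairs (adjusted p = 0.0761, 0.0752 and 0.0831). Bsg and Get3 were picked from the 24 after their values were seen.

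**Figure D3:**
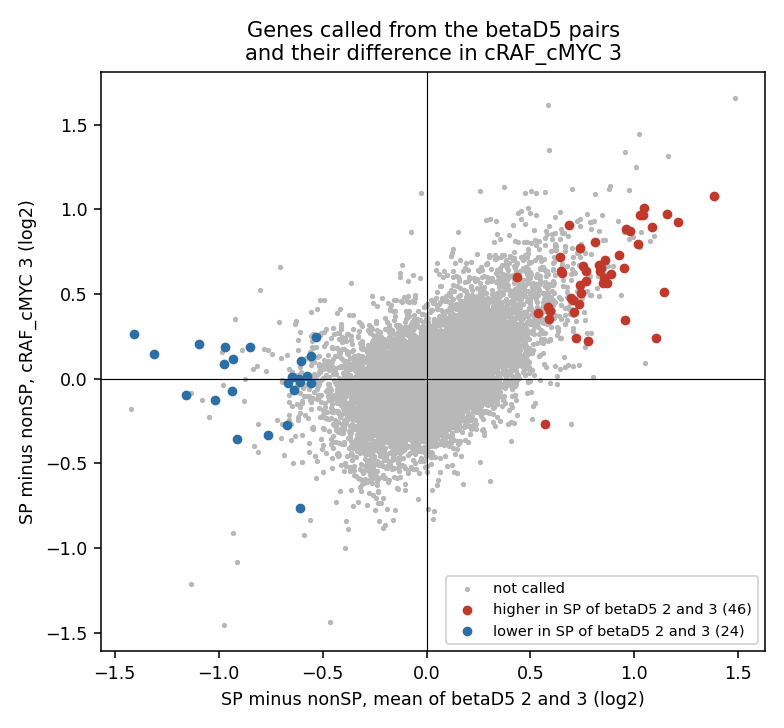
The x axis is SP minus nonSP averaged over betaD5 2 and betaD5 3, and the y axis is the same difference in cRAF_cMYC 3, both on the log2 scale with 1 point per gene. Red points are the 46 genes called higher from the betaD5 pairs alone, with 45 above 0 on the y axis, and blue points the 24 called lower, with 12 below 0.

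Among the efflux transporters, Abcg2 rose in SP. It had log2 signals of 11.54, 11.10 and 11.25 in SP, against 10.88, 10.66 and 10.88 in nonSP. Every SP array lay above every nonSP array. The difference was 0.49 ± 0.10 (SE, n = 3 pairs), or 1.40-fold, with a 95% interval of 0.27 to 0.71 and an adjusted p of 0.0228. The call was lost in the fits without betaD5 2 and without cRAF_cMYC 3.

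Abcb1b had 11.19, 10.76 and 10.93 in SP and 10.27, 10.52 and 10.47 in nonSP. The groups again did not overlap, but the difference of 0.54 ± 0.16 missed the threshold (adjusted p = 0.0718). The second probe set of Abcb1b differed by -0.26, at a low mean level of 5.28. Abcb1a had 7.85, 7.54 and 7.56 in SP and 6.93, 7.73 and 7.17 in nonSP, with overlapping groups and a difference of 0.38 ± 0.21 (adjusted p = 0.286). The other Abcb1a probe set differed by 0.74, with pairs at 1.77, -0.14 and 0.60, at a mean level of 6.76. Abcc1, which exports glutathione conjugates, differed by -0.04 ± 0.07 (adjusted p = 0.722). Over the 11 transporters tested, 1 was called (9.09%, against 5.55% of all genes), 4 lay above 0 and the median was -0.04.

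Hypoxia-response genes lay mostly higher in SP. These genes are switched on when hypoxia-inducible factors escape degradation and bind short sites around an ACGTG or GCGTG core in promoters and enhancers. Of 20 tested, 5 were called higher and 0 lower, and 18 lay above 0, against 4.65% called higher and 58.6% above 0 over all genes. The list median was 0.28, with 0.31, 0.23 and 0.27 in the 3 pairs. It was 0.20 in the Efemp1-high pairs and 0.00 in the A2C12 pairs. The promoters of the called members that could be matched in RefSeq (GRCm38.p6) are shown because they let a reader see these cores beside the values. Each covers 250 bases before to 50 bases after the gene start, on the minus strand, with every ACGTG or GCGTG of either strand in capitals.
Ddit4 (chr10:59951721-59952020): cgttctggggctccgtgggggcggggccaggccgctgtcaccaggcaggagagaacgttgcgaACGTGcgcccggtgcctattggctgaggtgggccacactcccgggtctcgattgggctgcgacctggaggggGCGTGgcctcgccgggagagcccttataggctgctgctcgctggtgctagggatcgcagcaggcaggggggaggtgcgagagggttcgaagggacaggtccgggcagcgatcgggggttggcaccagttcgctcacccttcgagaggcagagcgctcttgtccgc
Kdm3a (chr6:71632868-71633167): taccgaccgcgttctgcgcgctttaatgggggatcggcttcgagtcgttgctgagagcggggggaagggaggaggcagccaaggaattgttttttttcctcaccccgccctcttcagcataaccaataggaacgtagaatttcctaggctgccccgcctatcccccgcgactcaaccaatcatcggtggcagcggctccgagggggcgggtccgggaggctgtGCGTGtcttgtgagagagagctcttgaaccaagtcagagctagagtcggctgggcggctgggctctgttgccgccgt
Pfkfb3 (chr2:11553880-11554179): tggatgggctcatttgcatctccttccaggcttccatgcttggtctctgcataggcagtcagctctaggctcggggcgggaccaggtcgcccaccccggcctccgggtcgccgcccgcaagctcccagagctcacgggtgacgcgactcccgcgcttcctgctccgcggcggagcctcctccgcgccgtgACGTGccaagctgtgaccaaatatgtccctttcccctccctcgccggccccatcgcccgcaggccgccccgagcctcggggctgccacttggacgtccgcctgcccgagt
Ankrd37 (chr8:45999801-46000100): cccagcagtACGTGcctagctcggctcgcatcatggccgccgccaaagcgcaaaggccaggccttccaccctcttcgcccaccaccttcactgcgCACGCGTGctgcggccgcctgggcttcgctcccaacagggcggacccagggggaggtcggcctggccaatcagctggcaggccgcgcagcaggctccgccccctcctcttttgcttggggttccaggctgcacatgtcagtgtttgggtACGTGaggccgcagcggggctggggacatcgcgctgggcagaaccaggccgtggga

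The Ddit4 promoter holds 2 such cores, Kdm3a 1, Pfkfb3 1 and Ankrd37 4, of which 2 overlap on opposite strands. A core of 5 bases is common: 5689 of 8863 promoters of tested genes hold at least 1 (64.2%), as do 14 of the 16 matched promoters of the hypoxia list. A match is a description of these letters and not a site of binding. The window is that of the most upstream start listed, with 3 starts listed for Kdm3a and 2 for Pfkfb3.

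Ddit4, an inhibitor of the growth regulator mTORC1, was the member with the smallest p. It had log2 signals of 13.31, 13.05 and 13.40 in SP, against 12.72, 12.76 and 12.80 in nonSP. Every SP array lay above every nonSP array by more than the spread among nonSP arrays. The difference was 0.49 ± 0.07 (adjusted p = 0.00681), and it was called after removal of each pair in turn.

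Kdm3a, an oxygen-dependent histone H3 demethylase, had 11.20, 10.88 and 11.62 in SP against 10.12, 10.20 and 10.50 in nonSP. The groups did not overlap, and the difference of 0.96 ± 0.16, or 1.95-fold, had an adjusted p of 0.0105. It was 1.12 in cRAF_cMYC 3, the pair without a raised control ratio.

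Pfkfb3, which makes the activator of phosphofructokinase in glycolysis, had 9.96, 9.55 and 9.97 in SP against 9.23, 9.05 and 9.02 in nonSP. All SP arrays lay above all nonSP arrays, and the difference was 0.73 ± 0.15 (adjusted p = 0.0224). Its other probe set differed by -0.20, at a low mean level of 5.99. Ankrd37, an ankyrin repeat protein gene, had 9.99, 9.99 and 10.81 in SP and 9.67, 9.15 and 10.30 in nonSP, higher in SP within every pair although the groups overlapped. Its difference was 0.56 ± 0.13 (adjusted p = 0.0335). Ndrg1, named after its values were seen as the remaining called member, had 12.15, 11.32 and 11.77 in SP and 10.43, 11.08 and 10.95 in nonSP, with a difference of 0.92 ± 0.23 (adjusted p = 0.0427).

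The calls of Kdm3a and Pfkfb3 were lost without betaD5 2 and without cRAF_cMYC 3, as was that of Ndrg1, and that of Ankrd37 was lost without any 1 of the 3 pairs. Glycolysis genes did not follow the hypoxia list. Of 14 tested 0 were called, and the median was 0.04, the same as over all genes. Eno2, a neuronal enolase, differed by 0.40 ± 0.12 (adjusted p = 0.0625), and Tpi1, triosephosphate isomerase, by -0.24 ± 0.09 (adjusted p = 0.135).

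**Figure D4:**
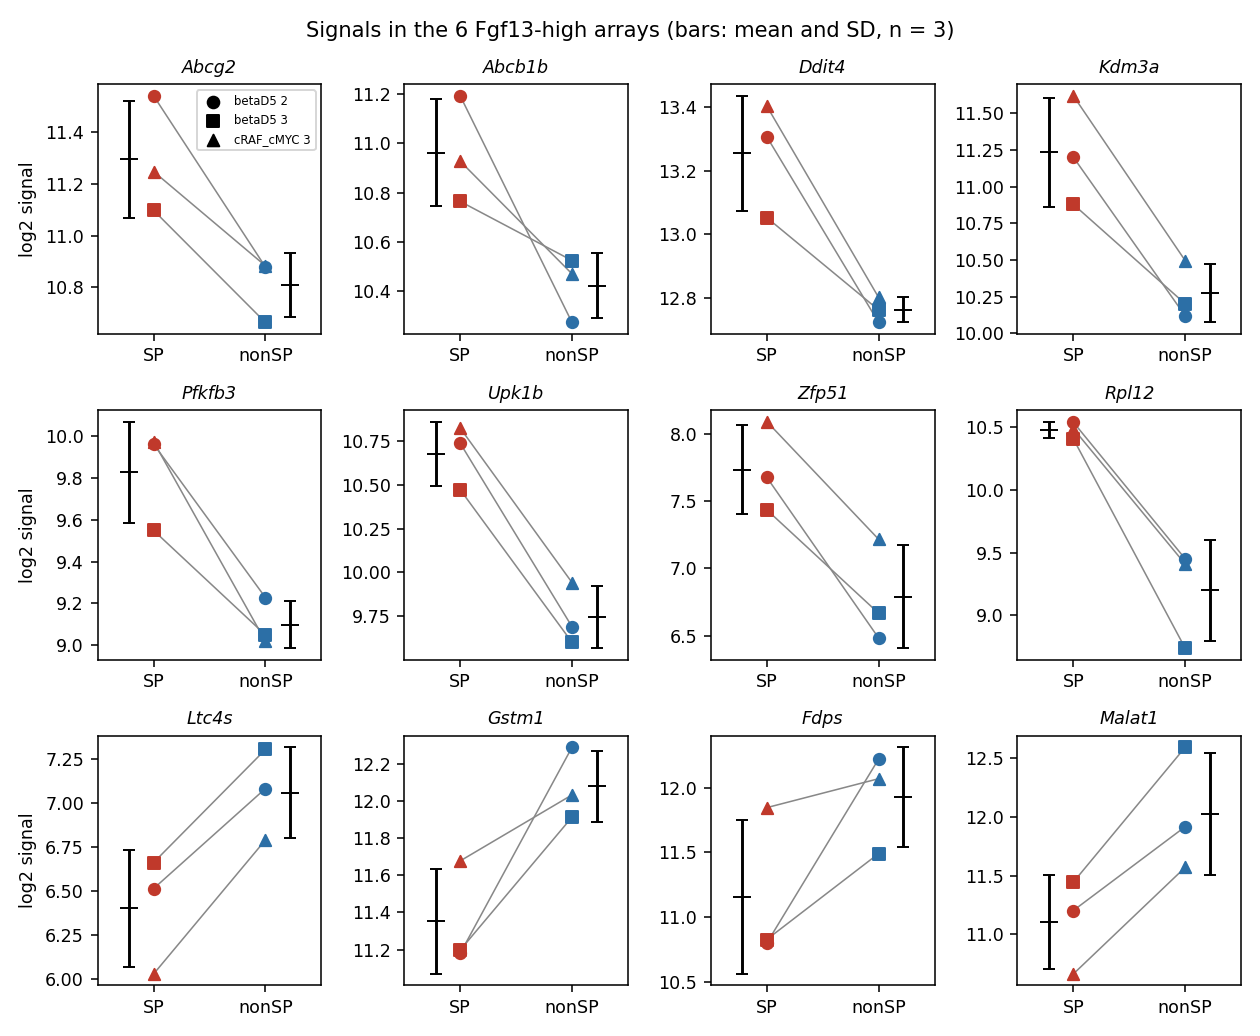
Each panel gives 1 gene, with the log2 signal of the 3 SP arrays (red) left of the 3 nonSP arrays (blue), lines joining the arrays of a pair, and black bars for the mean and SD (n = 3). The groups do not overlap in any panel except Fdps, where cRAF_cMYC SP 3 lies above betaD5 nonSP 3. The y axes differ between panels and do not start at 0.

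Zinc finger genes lay mostly higher in SP. A list of all tested genes whose symbol begins with Zfp, Zbtb, Zscan, Zkscan or Zik was added after values were seen. Of its 259 members, 66 were called higher (25.5%) and 0 lower, 214 lay above 0 and the median was 0.21, against 4.65% and 0.04 over all genes. The median was 0.26, 0.18 and 0.23 in the 3 pairs. Many of these genes code for transcription factors with tandem zinc fingers that sit in clusters of near-identical copies, so probe sets may share signal between copies. Chromosome 17 held 35 of the tested members, of which 14 were called, chromosome 7 held 47 with 6 called and chromosome 18 held 11 with 7 called.

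Zfp51 had log2 signals of 7.68, 7.44 and 8.09 in SP, against 6.48, 6.67 and 7.22 in nonSP. No nonSP array reached the lowest SP array, and the difference of 0.94 ± 0.10 was among those with the smallest adjusted p (0.00634). Zfp958 had 8.04, 7.77 and 7.85 in SP against 6.35, 7.03 and 6.92 in nonSP, with a difference of 1.11 ± 0.15, or 2.17-fold (adjusted p = 0.00694). Both were called after removal of each pair in turn. In the Efemp1-high pairs the list median was 0.01 and in the A2C12 pairs it was 0.00.

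Chromatin regulators also lay mostly higher: of 24 tested, 9 were called higher and 0 lower, 20 lay above 0 and the median was 0.20. Over all genes 4.65% were called higher and 58.6% lay above 0. The list median was 0.17 in the Efemp1-high pairs and -0.05 in the A2C12 pairs. Kdm3a is counted here too. Arid4b, a subunit of a histone deacetylase complex, had 10.53, 10.52 and 10.74 in SP against 10.03, 9.81 and 9.89 in nonSP. Here too SP lay above nonSP throughout, and the difference was 0.69 ± 0.11 (adjusted p = 0.00954), while its 5 other probe sets differed by -0.02 to 0.51. Kdm6a, an X-linked histone H3 demethylase, had 9.86, 9.15 and 9.53 in SP against 8.90, 8.78 and 8.77 in nonSP, also without overlap, with a difference of 0.70 ± 0.12 (adjusted p = 0.0127).

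Epc1, a subunit of the NuA4 histone acetyltransferase complex, had 11.23, 11.08 and 11.24 in SP against 10.50, 10.51 and 10.38 in nonSP. Its difference was 0.72 ± 0.13 (adjusted p = 0.0139), and its other probe sets differed by -0.15 and -0.26, at mean levels of 8.76 and 4.17. Jarid2, a partner of the Polycomb complex that methylates histone H3, had 7.89, 8.38 and 8.30 in SP against 7.70, 7.71 and 7.64 in nonSP. Its groups did not overlap, and the difference of 0.50 ± 0.21 did not pass (adjusted p = 0.163). Other Polycomb subunits lay near the median of all genes, with Ezh2 at 0.15, Eed at 0.13 and Suz12 at 0.08, none of them called.

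The largest increase was that of Olr1, a scavenger receptor for oxidised lipoprotein. It had log2 signals of 9.07, 8.22 and 8.90 in SP, against 6.55, 7.78 and 7.24 in nonSP. The groups did not overlap, but the pairs differed widely, by 2.53, 0.44 and 1.66, and the mean of 1.54 ± 0.36 had an adjusted p of 0.0361. Rpl12 had 10.54, 10.41 and 10.49 in SP against 9.45, 8.74 and 9.41 in nonSP, a difference of 1.28 ± 0.16, or 2.43-fold (adjusted p = 0.00634). It codes for a protein of the large ribosomal subunit, and it stood alone: the other 15 ribosomal protein genes tested lay between -0.09 and 0.15 and none was called.

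Crip1, a small LIM domain protein gene, rose by 1.16 ± 0.29 with pairs at 1.50, 0.54 and 1.44 (adjusted p = 0.0413). Slc16a4, of the monocarboxylate transporter family, rose by 1.09 ± 0.14 (adjusted p = 0.00658), although its other probe set differed by -0.08. Abtb2 rose by 1.09 ± 0.19, with its 2 other probe sets at 0.39 and -0.24, at mean levels of 6.68 and 3.82. Rlf, a zinc finger gene, rose by 1.08 ± 0.15, and its other probe sets lay at 0.21 and -0.30, at levels of 4.72 and 7.66. In both genes the other probe sets differed in sign.

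Dennd2c, which codes for a DENN domain protein, had 7.87, 7.46 and 7.79 in SP against 6.51, 6.73 and 6.78 in nonSP and rose by 1.04 ± 0.13 (adjusted p = 0.00634). Arrdc3, an arrestin-domain gene, rose by 1.02 ± 0.15 (adjusted p = 0.00826). Chaserr, a long noncoding RNA next to the Chd2 gene, had 8.91, 9.25 and 9.33 in SP against 8.16, 7.92 and 8.36 in nonSP and rose by 1.02 ± 0.13 (adjusted p = 0.00634). Chd2 itself, a chromatin remodeller, rose by 0.44 ± 0.10 (adjusted p = 0.0299). Cyp2s1, a cytochrome P450, rose by 1.02 ± 0.24 (adjusted p = 0.0337), and Rhpn2, which binds the GTPase RhoB, by 1.02 ± 0.27 (adjusted p = 0.049) with its other probe set at 0.95.

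Of the 51 named genes that passed the test, 11 were called after removal of each pair in turn: Rpl12, Zfp958, Slc16a4, Dennd2c, Arrdc3, Chaserr, Ddit4, Upk1b, Zfp51 and Hps5, all higher in SP, and Ltc4s. Hps5, a subunit of a complex that builds lysosome-related organelles, rose by 0.80 ± 0.10 (adjusted p = 0.00634). Beyond the named genes, Npat, a regulator of histone gene transcription, was in the same position, with 9.88, 9.62 and 9.57 in SP against 8.66, 8.78 and 8.61 in nonSP. So was Btc, which codes for the epidermal growth factor receptor ligand betacellulin, with 9.38, 8.83 and 8.79 in SP against 8.42, 8.11 and 8.14 in nonSP. Both were picked after their values were seen.

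Upk1b, a tetraspanin of the uroplakin group found in urothelium and mesothelium, had 10.74, 10.47 and 10.82 in SP against 9.69, 9.60 and 9.94 in nonSP. The groups did not overlap, the pairs differed by 1.05, 0.87 and 0.88, and the mean was 0.93 ± 0.12, or 1.91-fold (adjusted p = 0.00634). Its other probe sets differed by 1.0, 0.76 and 0.46. Upk1b was 1 of 8 mesothelial markers, all of which lay above 0, with a median of 0.42.

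No other marker of that list was called. Msln, mesothelin, had 11.43, 10.57 and 11.03 in SP and 9.90, 10.52 and 10.54 in nonSP (difference 0.69 ± 0.26, adjusted p = 0.13). Wt1, a transcription factor of mesothelium, had 10.60, 10.41 and 10.56 in SP and 10.29, 9.95 and 10.13 in nonSP (0.40 ± 0.20, adjusted p = 0.226). Lrrn4 and Upk3b overlapped between the groups, with differences of 0.63 ± 0.27 and 0.44 ± 0.23.

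The mean of the 8 markers was 11.67, 11.55 and 11.86 in SP, against 11.20, 11.01 and 11.42 in nonSP, with no overlap. In the Efemp1-high pairs the list median was -0.27 and in the A2C12 pairs 0.09. The Efemp1-high pairs differed in sign, with medians of -0.37 in betaD5 1, 0.21 in cRAF_cMYC 1 and -0.81 in cRAF_cMYC 2. In sorted bulk cells, a larger share of cells of a type and more RNA per cell cannot be told apart.

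Markers of lung epithelium were partly low and partly above the array median. All 8 mesothelial markers lay above the array median in each of the 6 arrays, as did 14 of 19 fibroblast and stromal genes. Epcam, an epithelial adhesion gene, lay above it in 6 of 6 arrays, from 9.09 to 9.70 in SP and 9.07 to 9.50 in nonSP. The same held for the keratin genes Krt8 and Krt18, the surfactant gene Sftpb, the lung transcription factor gene Nkx2-1 and the alveolar type I marker Ager. Nkx2-1 lay only just above it, from 6.45 to 6.87 in SP and 6.62 to 7.06 in nonSP, with array medians of 6.33 to 6.72. The median is that of all probe sets of an array, so a signal above it need not mean that a gene is expressed. Of the marker lists, 5 or 6 of 9 alveolar type II markers and 5 of 6 alveolar type I markers lay above it in each array. Cdh1, E-cadherin, lay below it in all 6, as did the club cell marker Scgb1a1 and the surfactant gene Sftpa1. Sftpc, the surfactant gene that defines alveolar type II cells, lay above it in 1 of 6.

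Leukocyte markers were mixed in level. Ptprc, the pan-leukocyte gene, lay between 3.81 and 4.53 in SP and between 3.89 and 4.72 in nonSP, below the array median in every array. Cd14, of monocytes and macrophages, lay between 10.60 and 10.85 in SP and between 10.72 and 11.16 in nonSP. Of the 11 leukocyte markers on the array, 5 to 7 lay above the array median in each array. Pecam1 of endothelium lay below it in every array. All 6 leukocyte markers tested lay below 0 (median -0.23) and none was called, with Cd14 at -0.28 and Fcer1g at -0.22. The mean level of the 11 ranged from 6.64 to 7.03 in SP and from 6.79 to 7.20 in nonSP. Of the alveolar type II, alveolar type I, club, ciliated and endothelial markers tested, none was called, and no erythroid marker was left after the filter on low genes. The part of other cells in the differences was not tested.

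Among the decreases, Ltc4s, the gene of an enzyme of leukotriene synthesis, was the 1 called after removal of each pair in turn. It had log2 signals of 6.51, 6.66 and 6.03 in SP, against 7.08, 7.31 and 6.79 in nonSP. This level was low: the medians of the SP arrays were 6.59, 6.65 and 6.33, so Ltc4s lay near or below them in SP. The groups did not overlap, the pairs differed by -0.57, -0.64 and -0.76, and the mean was -0.66 ± 0.08 (adjusted p = 0.00634).

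Gstm1, a glutathione transferase, had 11.18, 11.20 and 11.68 in SP against 12.29, 11.91 and 12.03 in nonSP. Every SP array lay below every nonSP array, and the difference was -0.73 ± 0.12 (adjusted p = 0.0117), smallest in size in cRAF_cMYC 3 at -0.35. The other Gstm1 probe sets differed by -0.56, -0.11 and -0.07, at mean levels of 10.73, 8.72 and 9.96. Gstm1 was the only called gene among 18 of the Nrf2 and antioxidant list, whose median was 0.11. Fdps, which makes farnesyl diphosphate for sterols and prenylation, had 10.80, 10.83 and 11.85 in SP and 12.22, 11.49 and 12.07 in nonSP. The groups overlapped, and the difference was -0.77 ± 0.19 (adjusted p = 0.0445), with pairs at -1.42, -0.67 and -0.22. No other of the 19 sterol and fatty acid genes was called, and their median was 0.06.

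Tecr, an enzyme of very long chain fatty acid elongation, fell by 0.80 with pairs at -1.53, -0.79 and -0.10 (adjusted p = 0.0336). Cd99, a cell surface glycoprotein gene, fell by 0.72 with pairs at -1.27, -0.76 and -0.13 (adjusted p = 0.0317). Laptm4a, a lysosomal membrane protein gene, fell by 0.65 with pairs at -0.91, -0.96 and -0.07 (adjusted p = 0.0464). In each of these the pair without a raised control ratio moved least. The 98 genes called lower had medians of -0.41, -0.40 and -0.37 in the 3 pairs. A call from these same 3 pairs favours like values, so these medians cannot show how cRAF_cMYC 3 compares. The 24 genes called lower from the betaD5 pairs alone had a median of 0.00 in cRAF_cMYC 3, against -0.72 in the betaD5 pairs. Cdk5, a kinase best known in neurons, fell by 0.62 (adjusted p = 0.0111) and its pairs lay at -0.80, -0.73 and -0.33. Other probe sets of Cdk5 differed by -0.13 and -0.07, at mean levels of 7.19 and 6.80. Haghl fell by 0.68, with pairs at -0.96, -0.66 and -0.43, and Tlcd2 by 0.58, with pairs at -0.65, -0.76 and -0.35. Best2, of the bestrophin chloride channel family, fell by 0.55, with pairs at -0.12, -0.94 and -0.59. Ahdc1, a DNA-binding protein gene, fell by 0.55, with pairs at -0.37, -0.39 and -0.89. Other probe sets of Ahdc1 differed by 0.12 and -0.02, at mean levels of 7.78 and 6.41.

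Malat1, a long noncoding RNA kept in the nucleus, had 11.20, 11.45 and 10.66 in SP against 11.92, 12.60 and 11.57 in nonSP. All SP arrays lay lower, and the difference was -0.92 ± 0.17 (adjusted p = 0.0166). Its probe sets disagreed, with the 6 others at -1.07, -0.27, 0.80, 1.32, -1.10 and -0.27, so no direction is given for the transcript as a whole. The chosen probe set differed by -0.92 in the Efemp1-high pairs too.

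Several host genes of small nucleolar RNAs were called higher. Snhg1 had 13.25, 12.93 and 12.93 in SP against 12.59, 12.69 and 12.42 in nonSP, with a difference of 0.47 ± 0.08 (adjusted p = 0.0127), and its 4 other probe sets lay between 0.21 and 0.72. Snhg3 rose by 0.47 ± 0.09 (adjusted p = 0.0175) and Snhg7 by 0.75 ± 0.16 (adjusted p = 0.0246). Gas5, of the same kind, lay at -0.01. Over the 12 noncoding RNAs tested 3 were called higher and 1 lower (33.3% called, against 5.55% of all genes). Of the 12, 6 lay above 0 and 6 below it. The list median of 0.06 lay near the 0.04 of all genes.

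Translation initiation genes showed 4 calls higher and 0 lower among 17 (23.5%, against 5.55% of all genes), with a median of 0.06. Eif5b, which joins the ribosomal subunits, had 9.99, 9.93 and 9.84 in SP against 9.46, 9.60 and 9.43 in nonSP, without overlap, and its difference was 0.43 ± 0.09 (adjusted p = 0.0238). Eif4a2, an RNA helicase, rose by 0.29 ± 0.08 (adjusted p = 0.0468). Eif4g2 and Eif4ebp2 were called from their chosen probe set, at 0.24 and 0.32, but lay at -0.04 and -0.04 when all their probe sets were averaged. Eif4e, the cap-binding protein gene, differed by -0.15 ± 0.19 (adjusted p = 0.649).

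In the integrated stress response list 2 of 21 were called (9.52%, against 5.55% of all genes). Cebpb, a transcription factor, had 13.57, 13.42 and 13.50 in SP against 13.02, 12.91 and 13.05 in nonSP, without overlap, and rose by 0.50 ± 0.12 (adjusted p = 0.0369). Chac1, which degrades glutathione, had 10.29, 9.72 and 9.15 in SP against 9.33, 9.03 and 8.66 in nonSP. It rose within every pair, by 0.72 ± 0.19 on average (adjusted p = 0.0471). The list median of 0.08 lay near that of all genes, and Atf4 and Ddit3 lay at -0.20 and 0.11.

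Single members of other lists were called, at shares of 3.7% to 12.5% around the 5.55% of all genes, so these counts are no result about the lists. Nrarp, a feedback inhibitor of Notch, had 8.41, 8.63 and 8.94 in SP against 7.75, 7.98 and 8.27 in nonSP. Its pairs differed by 0.66, 0.65 and 0.67 (adjusted p = 0.0139), and it was the only gene called among 11 of the Notch pathway. Tgfbr1, a receptor of TGF-beta, had 9.98, 10.09 and 9.98 in SP against 9.64, 9.59 and 9.47 in nonSP and rose by 0.45 ± 0.08 (adjusted p = 0.0141), the only call among 19. Ccn5, a matricellular Wnt target, fell by 0.35 ± 0.09 (adjusted p = 0.05), the only call among 13. Grhl2, an epithelial transcription factor, fell by 0.38 ± 0.10 (adjusted p = 0.0468), the only call among 8 epithelial junction genes. Of 27 mitosis genes, Ccnf, a cyclin of G2 phase, was called at 0.57 ± 0.14 (adjusted p = 0.0381), and the list median was 0.03.

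**Figure D5:**
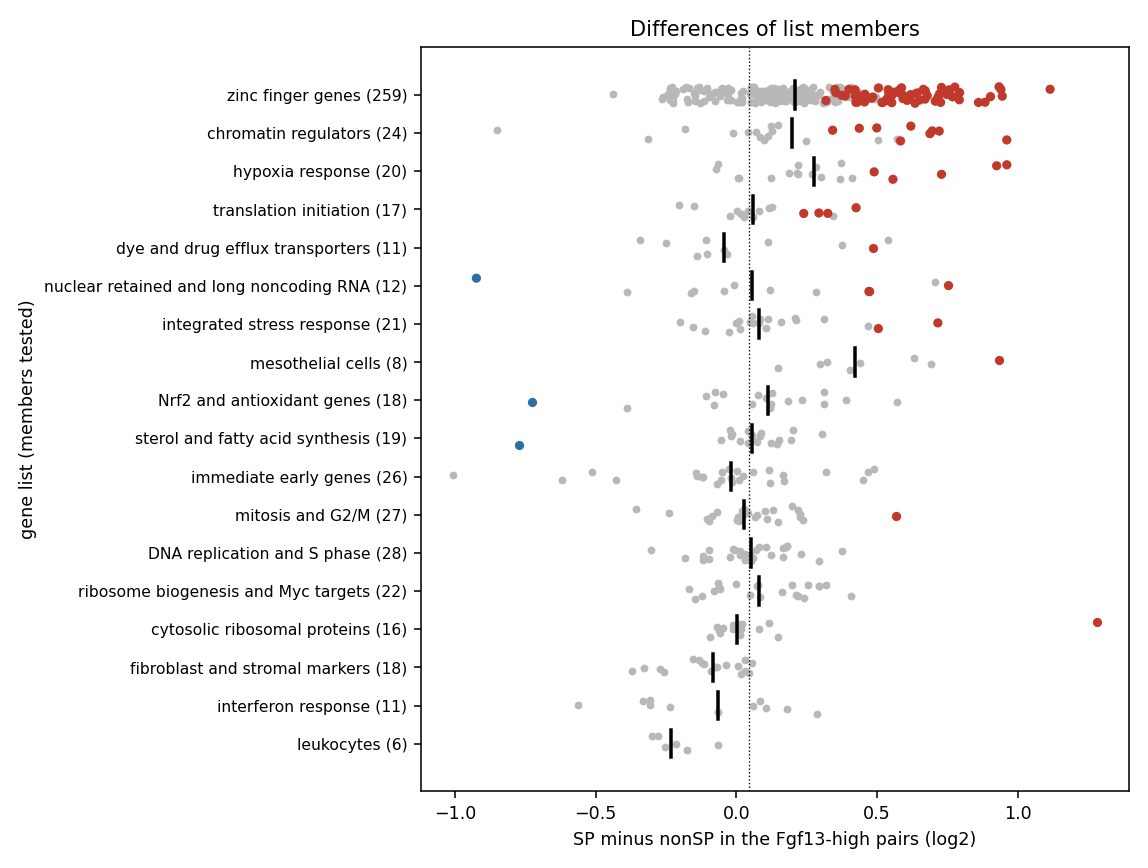
Each row is a gene list, with the number of members tested in brackets, and each point a member placed by SP minus nonSP on the log2 scale. Red points are called higher, blue points called lower and grey points not called. Black bars mark the list median and the dotted line that of all genes tested (0.04). The zinc finger, chromatin, hypoxia and mesothelial bars lie at 0.21, 0.20, 0.28 and 0.42.

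Many lists held no call in limma's fit. These were glycolysis, DNA replication (28 tested, median 0.05), ribosome biogenesis and Myc targets (22, 0.08), endoplasmic reticulum chaperones (18, 0.01), heat shock (16, 0.12), immediate early genes (26, -0.02), p53 targets (19, 0.14) and interferon response (11, -0.06). The same held for chemokines and NF-kappaB targets (18, 0.07), fibroblast and stromal markers (18, -0.08), epithelial to mesenchymal transition (17, 0.00), stem and progenitor markers (11, 0.12), nuclear factor I genes (4, -0.06), MAPK feedback (14, 0.11), mitochondrial respiration (16, -0.04) and fibroblast growth factor signalling (7, 0.00). Ribosome biogenesis genes had medians of 0.32, -0.22 and 0.19 in the 3 pairs, so the pairs did not move together. At an unadjusted p below 0.05, p53 targets held 8 of 19 genes, immediate early genes 6 of 26, ribosome biogenesis 5 of 22 and heat shock 5 of 16. Of all 10916 genes tested, 2756 lay below that value, so these counts are no result about the lists. Myc, a transcription factor of growth, had 11.30, 10.89 and 10.83 in SP and 10.66, 11.18 and 10.82 in nonSP, with overlapping groups and a difference of 0.12 ± 0.14 (adjusted p = 0.634).

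Immediate early genes varied by pair. Gadd45b, a stress-induced growth arrest gene, differed by -0.98, -0.97 and 0.09 in its chosen probe set, at a mean level of 12.66. Its other probe sets, at levels of 12.68 and 7.72, differed by only -0.22 and -0.22. In cRAF_cMYC 3 they lay at -0.16 and -0.35, so the probe sets disagreed on that pair. Btg2, an antiproliferative gene, differed by -2.55, -0.29 and -0.18, with its other probe set at 0.28. Egr1 differed by -0.43 ± 0.12 (adjusted p = 0.0572). Hspa1a, the inducible heat shock protein gene, had 6.68, 6.62 and 5.18 in SP and 7.22, 7.29 and 5.35 in nonSP, a difference of -0.46 ± 0.14 (adjusted p = 0.0792). Hsf2, a heat shock transcription factor gene, differed by 1.59, 0.51 and 0.10. None of these passed.

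The other sets gave few calls on their own. In the Efemp1-high pairs 3 genes passed (0.0275%), Col14a1 and Kcnk5 higher (0.0183%) and Hspa1a lower (0.00916%), and in the A2C12 pairs 0 (limma, 271 at an unadjusted p below 0.05). The difference between sets was tested as an interaction. For Fgf13-high minus Efemp1-high 0 genes passed (1826 unadjusted, smallest adjusted p 0.174), and for Fgf13-high minus A2C12 0 passed (1508 unadjusted, smallest adjusted p 0.0822). No SP difference can therefore be called particular to the Fgf13-high pairs.

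The arrays of the other sets entered the calls through the shared spread, the choice of probe sets and the filter on low genes, and their SP differences can be read beside them. The 508 genes higher in SP had a median of 0.12 in the Efemp1-high pairs, where 402 lay above 0, as did 50.5% of all genes. In the A2C12 pairs their median was 0.01 and 274 lay above 0, as did 47.8% of all genes. By pair, 288 lay above 0 in betaD5 1, 436 in cRAF_cMYC 1 and 388 in cRAF_cMYC 2. The 98 genes lower in SP had a median of -0.01 in the Efemp1-high pairs, where 43 lay above 0, and of 0.00 in the A2C12 pairs, where 49 did.

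Genes differed in this reading. Kdm3a and Pfkfb3 lay at 0.80 and 0.75 in the Efemp1-high pairs, close to their Fgf13-high values of 0.96 and 0.73, and at -0.09 and -0.20 in the A2C12 pairs. Neither was called in those sets. Upk1b lay at -0.07 and 0.17, and Abcg2 at 0.19 and 0.06, in the Efemp1-high and A2C12 pairs in that order. Zfp51 lay at 0.13 in the Efemp1-high pairs. The Fgf13-high minus Efemp1-high difference was 1.0 for Upk1b and 0.82 for Zfp51, and neither passed over all genes (adjusted p = 0.174 for both). Col14a1, a fibril-associated collagen gene, differed by 1.05 in the Efemp1-high pairs and by 0.04 ± 0.11 in the Fgf13-high pairs. Its level in the Fgf13-high arrays was low, at 6.10, 6.14 and 6.09 in SP and 6.19, 6.16 and 5.88 in nonSP, below the median of every array. Its mean over the 18 arrays, which the filter used, was 8.25.

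Msantd3, which codes for a Myb/SANT domain protein, followed Col14a1 in size, at 0.85 in the Efemp1-high pairs and 0.24 ± 0.16 (adjusted p = 0.355) in the Fgf13-high pairs.

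Other probe sets of the called genes gave a further reading that the choice of 1 probe set per gene left out. Of the 508 genes higher in SP, 230 had 362 other probe sets, of which 279 also lay above 0, with a median of 0.23 against 0.49 for the chosen probe sets of the same genes. Of the 98 lower genes, 27 had 45 other probe sets, of which 36 also lay below 0, with a median of -0.13 against -0.43. Over all genes tested, 58.6% of the chosen probe sets lay above 0 and 41.4% below it. The direction was mostly shared and the size was smaller. All probe sets were read on the arrays that made the calls, so the shared direction is no separate support.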

How the data were processed

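Total RNA was labelled by 3' in vitro transcription and hybridised to Affymetrix 3' expression arrays. The table deposited by the authors holds a log2 signal for each probe set on each array, made with Affymetrix Expression Console per the submitters' processing notes. Its version, summary algorithm and normalization are not given in the sources used here. Values ran from 2.28 to 15.28 and array medians from 5.8 to 6.72. There are no counts behind an array signal, so precision depends on how many arrays there are.

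The values were used as deposited. Of 45101 probe sets, 64 are controls, 34945 carried 1 gene symbol, 932 several and 9160 none, and 34741 names were updated through RefSeq. Each of 18193 genes was represented by the probe set with the highest mean over the 18 arrays, and after removal of the lowest 40% by mean level 10916 genes remained. Arrays were sorted into Fgf13-high, Efemp1-high and A2C12 sets by title and Efemp1 level. R 4.3.3 and limma 3.58.1 (lmFit, eBayes with trend) fitted all 18 arrays with each pair as a block and an SP effect in each set, 6 residual degrees of freedom, two-sided, with Benjamini-Hochberg adjustment over 10916 genes at 0.05. Errors of differences are limma standard errors for a mean of 3 pairs. They use 1 variance per gene shared over all 18 arrays, so they are the same in each set and are not the spread of the 3 pairs. The fit was tested on simulated data.

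Same-numbered arrays deviated together from their group means in all 9 pairs, with correlations of 0.147, 0.16 and 0.67 in the Fgf13-high pairs. betaD5 SP 2 correlated more with betaD5 nonSP 3 (0.315). Arrays of 1 pair also share many equal values, so a shared origin and shared processing cannot be told apart.

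The arrays, the gene lists and the genes were chosen with earlier results of these data known. Named were the 12 largest increases and 12 largest decreases among called genes with 1 sign in the 3 pairs, up to 4 called members of each list or the 2 with the smallest p, the 5 with the smallest p in each interaction, and 17 genes known from earlier results. Predicted genes were not named. Further genes are said to be chosen after their values were seen.

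Alternatives were the fit without the block, crossed betaD5 numbers, the 6 arrays alone, quantile or median scaling, other filters, the mean of probe sets, other variance models, array weights, the 3'/5' ratio as a covariate, and removal of pairs.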

Additional observations from a re-analysis of the deposited data

Results flagged for a closer look

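The median of the 19 genes of the TGF-beta and BMP response list was 0.10 in the Fgf13-high pairs (0.03, 0.14 and 0.10 by pair), against -0.03 in the A2C12 pairs (-0.01, -0.13 and -0.02). Every Fgf13-high pair lay above 0 and every A2C12 pair below it. In the Efemp1-high pairs, too, every pair lay above 0 (0.20, 0.06 and 0.08, list median 0.09). Over all genes the medians by pair were 0.05, 0.04 and 0.03 in the Fgf13-high pairs. They were 0.03, -0.02 and -0.01 in the A2C12 pairs and -0.01, 0.04 and -0.02 in the Efemp1-high pairs. In betaD5 2 the list median thus lay below that of all genes. Of the list, 5.26% was called, against 5.55% of all genes. The difference between the sets was not tested.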

How the results depend on the processing

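Of 606 genes called, 0 passed without the replicate block, 0 with the 6 arrays alone and 0 with the 3'/5' ratio as a covariate, 369 with quantile scaling, 1049 with array medians centred, 293 with 60% of genes filtered and 1198 with array weights, whose estimation stopped before converging. Removal of 1 pair gave 40 to 529, and cRAF_cMYC 3 as the only pair gave 1, with its spread assumed to be that of the other pairs. The share of calls higher in SP was 83.8%, with quantile scaling 70.2% and with centring 94.2%. Centring moved the median of all genes to 0.10. The other settings (crossed numbers, no filter, mean of probe sets, no trend, robust) gave 404 to 716. The Fgf13-high minus Efemp1-high difference had 0 calls, but 1 with no filter, 1 with the mean of probe sets, 23 with array weights and 0 to 4 without 1 pair. The Fgf13-high minus A2C12 difference had 0 calls, but 23 with crossed numbers, 40 with centring, 26 with no filter, 11 with the mean of probe sets, 1760 with array weights and 0 to 42 without 1 pair. The causes were not tested. Over named genes and settings, 1217 values kept direction and side of the threshold, 353 were no longer called, 32 became called and 35 changed sign. With cRAF_cMYC 3 alone these were Tpi1 (0.020), Gadd45b (0.088), Ndufb5 (0.024), Muc5b (0.064), Tuba1a (-0.043), Fgf13 (-0.066), Eif4e (0.18) and Cenpb (0.26). With the mean of probe sets they were Eif4g2 (-0.041), Eif4ebp2 (-0.044), Hsp90b1 (-0.092), Fn1 (0.31), Col14a1 (-0.092) and Eif4e (0.062). Without 1 pair they ranged over -0.21 to 1.27 (Itga6), -0.22 to 0.027 (Nfic), -0.080 to 0.19 (Esam), -0.053 to 0.047 (Muc5b), -0.024 to 0.065 (Tuba1a), -0.052 to 0.10 (Col14a1), -0.14 to 0.33 (Myc), -0.16 to 0.13 (Fgf13) and -0.32 to 0.038 (Eif4e). With array weights they were Muc5b (0.026), Tuba1a (-0.0087), Fgf13 (-0.035) and Eif4e (0.020), with the ratio as a covariate Tuba1a (-0.049), Abcc1 (0.011), Fgf13 (-0.14) and Eif4e (0.26), with centring Muc5b (0.047) and Abcc1 (0.017), and with quantile scaling Fgf13 (-0.0027). Arrays give signals without counts, and the filter used the mean over 18 arrays, so genes near background in the 6 arrays were tested.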
